A study of Mus musculus with 24 samples.

Results

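Lymphoid genes were counted in the livers of mice of the NOD scid gamma (NSG) strain, which lacks mature T, B and natural killer (NK) cells. The set comprised 9 genes, taken by symbol from a table of 23240 rows of gene counts. They were 3 T cell genes (Ptcra, Cd3e and Cd3d), 2 B cell genes (Cd79a and Ms4a1), 2 NK cell genes (Ncr1 and Nkg7) and the 2 genes mutated in the strain (Prkdc and Il2rg). All 9 had a row. Ptcra was selected on its own counts, which step between the first and the last 12 libraries, so that contrast is given below as a description, without a test. The other 8 were chosen by their cell type or their mutation.

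All 24 livers came from female NSG mice, 8 weeks old, so the controls carry the same Prkdc and Il2rg mutations as the treated mice. The mice were given tail vein injections 2 times a week for 5 weeks, and livers were collected 2 days after the last injection. The 6 mice labelled MDA-MB-231 EV received about 10 µg per injection of extracellular vesicles (EVs, membrane particles shed by cells) from a human breast cancer line. The 6 labelled MCF10A/miR-122 EV received EVs of MCF10A, a non-tumorigenic human breast epithelial line, with miR-122, a microRNA. How that line was made is not stated in the labels. The 6 labelled MCF10A EV received EVs of MCF10A (pBABE, a retroviral vector, in the library names), and the 6 labelled PBS received phosphate-buffered saline. The labels do not say in so many words that each library is a separate mouse. If some were not, p-values would measure a spread that is in part technical.

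For 12 libraries the names go against the labels. Those labelled MDA-MB-231 EV carry names that refer to miR-122, in 4 of the 6 together with MCF10A, and those labelled MCF10A/miR-122 EV carry names that refer to MDA-MB-231. Groups are called by their label here. The numbers in the library names run from 10464 to 10487, with PBS and MCF10A EV first. The MDA-MB-231 EV and MCF10A/miR-122 EV libraries, which are the last 12, are called the last set, and the MCF10A EV and PBS libraries the first set. A comparison of the last set with the first does not depend on which of its groups is which. No group has libraries in both sets, so in each comparison across the sets, set and treatment cannot be told apart. Total counts were 30.9 ± 1.95 M (mega) per library in the last set and 25.9 ± 2.53 M in the first (SD, n = 12 each), within 21.3 to 33.7 M over all 24. A count of 0 allows up to 3 counts, which is 0.0889 to 0.141 CPM (counts per M), depending on the library. Each of 10 hepatocyte genes, among them Alb (albumin), passed the filter on low counts, as did each of 10 pan-leukocyte genes, among them Ptprc (CD45).

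T cells and B cells assemble their antigen receptor genes by cutting and rejoining DNA. The joining needs DNA-PK, whose catalytic subunit is encoded by Prkdc. The scid allele of Prkdc blocks this step, so mature T and B cells do not form. Il2rg encodes the common gamma chain, shared by the receptors for interleukins 2, 4, 7, 9, 15 and 21, and NK cells depend on it through interleukin 15. Ptcra encodes the invariant pre-T-cell receptor alpha chain, which pairs with a newly rearranged beta chain in thymocytes. CD3 epsilon (Cd3e) and CD3 delta (Cd3d) carry the signal of the T cell receptor. CD79a (Cd79a) does so for the B cell receptor, and CD20 (Ms4a1) is a B cell surface protein. Ncr1 encodes the NK receptor NKp46 and Nkg7 a protein of cytotoxic granules.

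The promoter windows of the 3 T cell genes are shown because 1 of these genes steps between the sets while the others stayed near 0. They run from 250 bases before to 50 after the RefSeq start, 5′ to 3′ on the gene's strand, in GRCm38.p6. This is not the mm9 build of the counts. Capitals mark E-boxes, the motif CANNTG, which reads the same way on both strands and is the motif bound by E proteins of lymphocytes, among other factors.
Ptcra, chr17:46763663-46763962, minus strand: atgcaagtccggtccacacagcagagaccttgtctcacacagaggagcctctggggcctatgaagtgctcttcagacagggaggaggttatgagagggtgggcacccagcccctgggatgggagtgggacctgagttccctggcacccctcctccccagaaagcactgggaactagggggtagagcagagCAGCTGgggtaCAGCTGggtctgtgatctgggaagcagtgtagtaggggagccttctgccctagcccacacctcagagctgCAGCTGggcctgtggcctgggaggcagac
Cd3e, chr9:45009562-45009861, minus strand: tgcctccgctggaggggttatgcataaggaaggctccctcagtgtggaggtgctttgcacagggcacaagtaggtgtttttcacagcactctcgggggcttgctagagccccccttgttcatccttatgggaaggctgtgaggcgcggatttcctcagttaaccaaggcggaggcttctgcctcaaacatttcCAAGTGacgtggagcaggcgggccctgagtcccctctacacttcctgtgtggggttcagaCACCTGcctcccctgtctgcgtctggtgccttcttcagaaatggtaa
Cd3d, chr9:44981536-44981835, plus strand: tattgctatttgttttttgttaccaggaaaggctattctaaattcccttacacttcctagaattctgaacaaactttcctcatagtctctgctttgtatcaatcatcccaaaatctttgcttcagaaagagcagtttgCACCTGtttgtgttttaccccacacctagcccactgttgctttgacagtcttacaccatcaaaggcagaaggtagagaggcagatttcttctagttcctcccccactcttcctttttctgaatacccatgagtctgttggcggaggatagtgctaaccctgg
The Ptcra window holds 3 E-boxes, each with the letters CAGCTG. The Cd3e window holds 2 E-boxes and the Cd3d window 1. An E-box is present in 72.3% of the 32851 promoter windows of the RefSeq table, with a median of 1 per window. GGAA, the core bound by ETS factors, was searched on both strands and can share an end letter with an E-box. It occurs 3 times in the Ptcra window, 5 times in that of Cd3e and 6 times in that of Cd3d. It is present in 96.0% of all windows, with a median of 3 per window. These matches describe letters only. Of the 9 genes, 7 had a window in the table, and Ms4a1 and Prkdc did not.

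Ptcra was near 0 in the last set and well above it in the first. It had 0, 0, 1, 1, 0 and 0 counts in the MDA-MB-231 EV libraries, replicates 1 to 6, and 0, 0, 0, 0, 1 and 1 in the MCF10A/miR-122 EV libraries. It had 80, 59, 58, 51, 143 and 81 counts in the MCF10A EV libraries and 48, 58, 56, 55, 47 and 65 in the PBS libraries. No library of the last set reached any library of the first. Over each set it came to 4 counts of 370.88 M in the last and 801 of 311.3 M in the first. The ratio of these shares was 0.00419, or 239-fold lower in the last set, with a 95% exact conditional binomial interval of 92.8-fold to 878-fold. Such intervals and floors cover counting error only, since the reads carry no molecular identifiers. In bulk tissue, fewer cells of a type and less RNA per cell cannot be told apart.

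Of the 13773 genes that passed the filter, 103 (0.748%) were likewise lower in every library of the last set than in any of the first, and 25 (0.182%) were higher in every one. Rows with at most 1 count in all 12 libraries of the last set and at least 10 in all 12 of the first numbered 4. They were Ptcra, Gm5779, Gm20594 and 4930447K03Rik. No row showed the reverse.

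**Figure D1:**
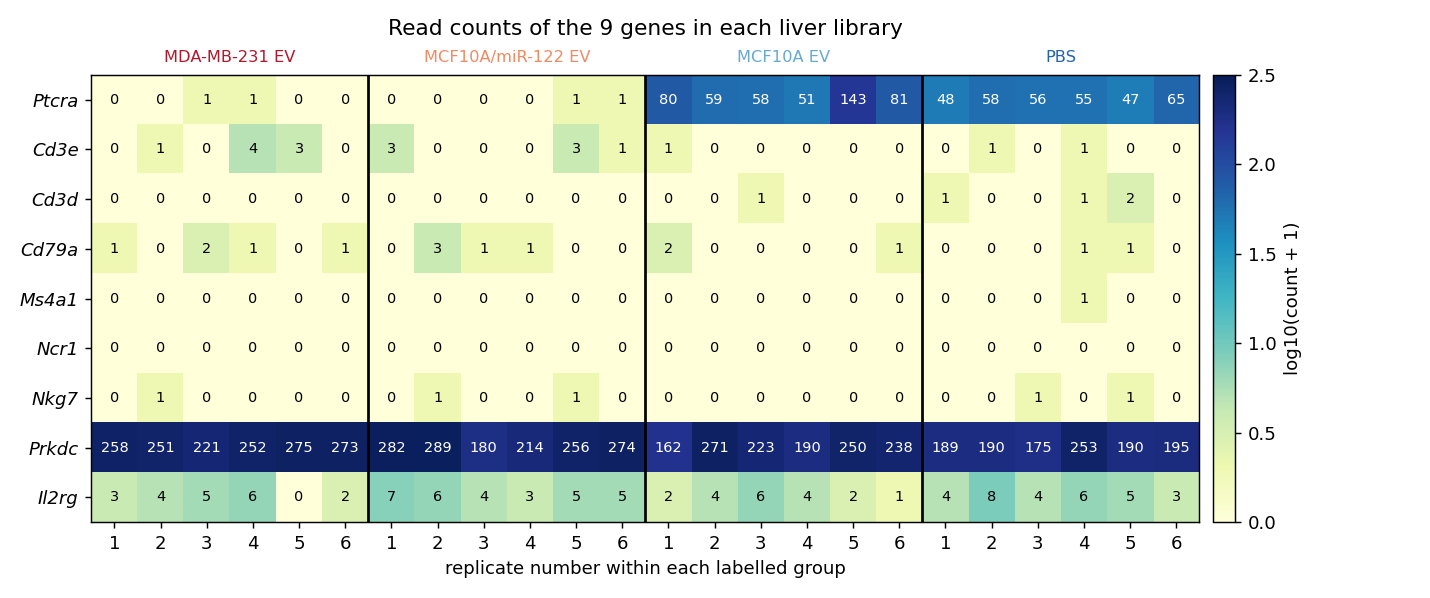
Read counts (whole numbers, colour on a log10 scale of count + 1) of the 9 genes in rows, in the 24 liver libraries in columns, 6 per labelled group. Ptcra has 0 or 1 count in the 12 libraries on the left and 47 to 143 in the 12 on the right, Prkdc has 162 to 289 throughout, and no other gene passes 8.

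Within the first set, where its choice did not use the contrast, Ptcra was at 3.06 ± 1.26 CPM in MCF10A EV livers and 2.02 ± 0.227 CPM in PBS livers (SD, n = 6 each). The libraries ran from 2.09 to 5.44 CPM in MCF10A EV livers and from 1.73 to 2.42 CPM in PBS livers, and the groups overlapped. MCF10A EV replicate 5 was the highest at 5.44 CPM. The log2 fold change was 0.60 (SE 0.22, 95% interval 0.14 to 1.05), which did not pass the threshold in edgeR's quasi-likelihood F test (unadjusted p = 0.0117, Benjamini-Hochberg adjusted p = 0.169, higher than the PBS median in 6 of 6 libraries). It was 0.34 (adjusted p = 0.403) without MCF10A EV replicate 5. That library also had the highest summed level of plasmacytoid dendritic cell genes of its group, 268 CPM against 168 to 201 CPM in the other 5, and the part of this in the Ptcra value was not tested. Of the 10 genes of that list, 4 passed the filter, with Bst2 and Tcf4 at the highest level. Another 4 stayed under 10 counts in every library, and whether the sum follows these cells was not tested. Within the last set the sums were 2 counts in MDA-MB-231 EV and 2 in MCF10A/miR-122 EV livers, under the floor of 3, so no fold is given. In order of level, MCF10A EV came first and PBS next, with overlapping libraries. Their difference was not called after adjustment, though its 95% interval left out 0. Both groups of the last set lay at the floor.

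The other T cell receptor genes were at a few reads in all groups. Cd3e had 0, 1, 0, 4, 3 and 0 counts in MDA-MB-231 EV livers and 3, 0, 0, 0, 3 and 1 in MCF10A/miR-122 EV livers. It had 1 count in MCF10A EV livers, in replicate 1, and 2 in PBS livers, in replicates 2 and 4. These came to 15 counts in 6 of the 12 libraries of the last set and 3 counts in 3 of the 12 of the first, so the groups overlapped at 0. Cd3d had 0 counts in all 12 libraries of the last set and 5 in the first, 1 of them in MCF10A EV and 4 in PBS livers. The counts of Cd3e were thus higher in the last set and those of Cd3d and Ptcra in the first.

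Both B cell genes were near 0. Cd79a had 5 counts in MDA-MB-231 EV, 5 in MCF10A/miR-122 EV, 3 in MCF10A EV and 2 in PBS livers, with at most 3 in a library. Of its 32-base stretches, 11.99% are shared with another gene, Gm32220, so its counts are uncertain. Ms4a1 had 1 count in all, in PBS replicate 4. That library also held 1 count each of Cd3e, Cd3d and Cd79a. The NK genes were near 0 too. Ncr1 was at 0 in all 24 libraries, and Nkg7 had 1 count in MDA-MB-231 EV, 2 in MCF10A/miR-122 EV, 0 in MCF10A EV and 2 in PBS livers, never more than 1 in a library. Over all 682 M counts, a count of 0 for Ncr1 allows up to 0.0044 CPM.

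Prkdc was measured in every library, with overlapping levels in all groups. Its level was 7.32 to 9.64 CPM in MDA-MB-231 EV livers with a median of 8.67 CPM, and 5.71 to 9.76 CPM with a median of 8.28 CPM in MCF10A/miR-122 EV livers. It was 6.79 to 9.59 CPM with a median of 8.70 CPM in MCF10A EV livers, and 6.32 to 8.98 CPM with a median of 7.02 CPM in PBS livers. No group stood apart. The last set over the first gave a log2 fold change of 0.07 (SE 0.08, 95% interval -0.10 to 0.24, adjusted p = 0.561 by edgeR, higher than the first set's median in 8 of 12 libraries). Against PBS, the log2 fold change of Prkdc was 0.24 in MDA-MB-231 EV livers (SE 0.12, 95% interval -0.0028 to 0.47, adjusted p = 0.191), 0.14 in MCF10A/miR-122 EV livers (SE 0.12, adjusted p = 0.435) and 0.23 in MCF10A EV livers (SE 0.12, 95% interval -0.0091 to 0.47, adjusted p = 0.307), all by edgeR. These 3 comparisons share the PBS livers. The counts do not show the scid allele or the protein.

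Il2rg was at 0 to 8 counts. It had 3, 4, 5, 6, 0 and 2 counts in MDA-MB-231 EV livers and 7, 6, 4, 3, 5 and 5 in MCF10A/miR-122 EV livers. It had 2, 4, 6, 4, 2 and 1 counts in MCF10A EV livers and 4, 8, 4, 6, 5 and 3 in PBS livers. The sets came to 50 counts in the last and 49 in the first, and all 4 groups overlapped. Of its 32-base stretches, 28.7% are shared with another gene, Gm20489, so these counts are uncertain. The table does not show which part of the mutated gene the reads come from.

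**Figure D2:**
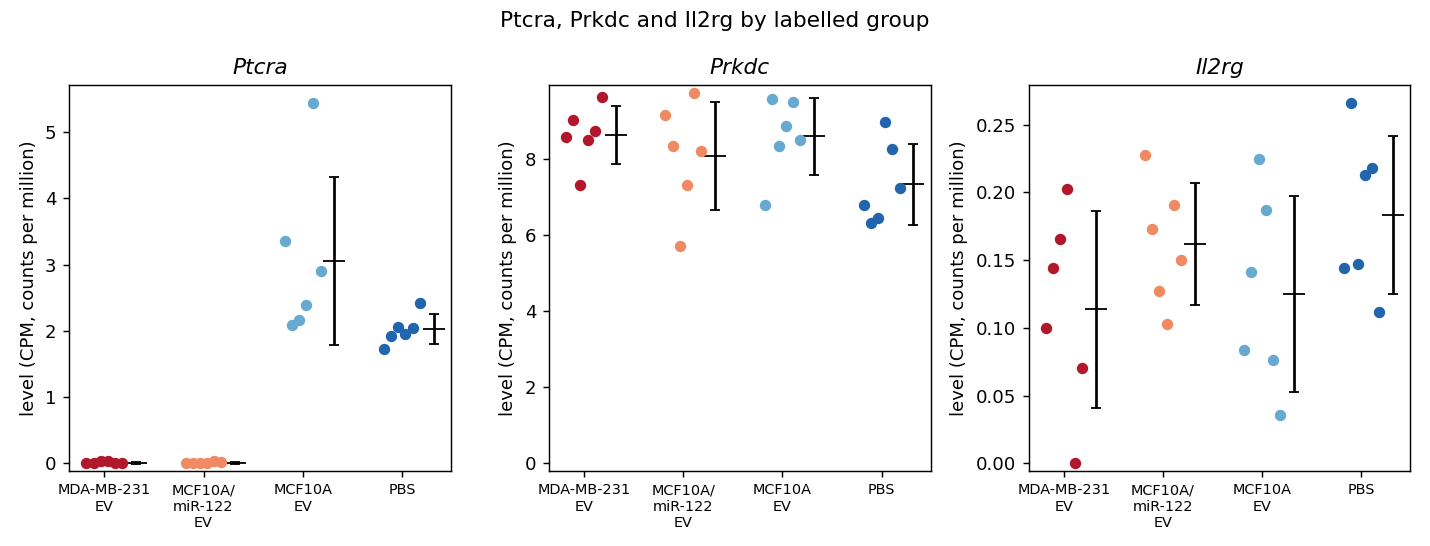
Level in CPM (linear axis from 0) of Ptcra, Prkdc and Il2rg. Each point is a library, in the 4 labelled groups of 6, and the black bar is the mean with its SD; Ptcra lies at or below 0.0381 CPM in the 2 groups on the left and between 1.73 and 5.44 CPM in the 2 on the right, while for Prkdc and Il2rg the 4 groups overlap.

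Of the 9 genes, 2 (Ptcra and Prkdc) passed the filter on low counts, and none was called at an adjusted p under 0.05 in the contrasts in which it was tested. In edgeR's test, 0 of 2 were called in MCF10A EV over PBS, where 1.07% of all genes were, and this is the contrast in which Ptcra could be tested. In the others Prkdc was the 1 gene tested. It was not called in MDA-MB-231 EV against MCF10A/miR-122 EV (0.254% of all genes called), where Ptcra, with 2 counts in each group, was too low for a test to bear on it. Nor was it called in MCF10A/miR-122 EV over PBS (17.9% of all genes called), MDA-MB-231 EV over PBS (11.7%), MCF10A/miR-122 EV over MCF10A EV (16.2%) or MDA-MB-231 EV over MCF10A EV (7.68%). The same held in the last set over the first, where 24.7% of all genes were called, 11.5% higher and 13.2% lower. At an unadjusted p under 0.05 there was 1 value, that of Ptcra in MCF10A EV over PBS, by edgeR and DESeq2. By limma-voom there were 2, with Prkdc in MDA-MB-231 EV over PBS added.

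A fit without the filter covered 18861 rows, of which 16.9% were called in the last set over the first. It gave 51 values for 8 of the 9 genes, again without Ptcra across the sets, and none passed the threshold. The smallest adjusted p was 0.114, for Cd3d, lower in the last set. The next smallest in that contrast was 0.125, for Cd3e, higher in the last set. An unadjusted p under 0.05 was reached by 5 of the 51. Il2rg, with the most counts of the 7 genes under the filter, had a log2 fold change of -0.15 in the last set over the first in that fit (SE 0.31, adjusted p = 0.843).

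The genes beside Ptcra on the chromosome did not step. In RefSeq order they are Gnmt (glycine N-methyltransferase, an abundant liver enzyme) and Cnpy3 (a chaperone of Toll-like receptors) on one side and 2310039H08Rik and Rpl7l1 on the other. Gnmt was at 1354 ± 167 CPM in the last set and 1404 ± 242 CPM in the first (SD, n = 12 each). Cnpy3 was at 38.1 ± 3.19 CPM in the last set and 40.1 ± 4.34 CPM in the first. The log2 fold changes of the last set over the first were -0.05 for Gnmt, -0.07 for Cnpy3, -0.10 for 2310039H08Rik and -0.07 for Rpl7l1, and none passed the threshold (edgeR adjusted p = 0.704, 0.373, 0.349 and 0.378).

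The rows most like Ptcra across the 24 libraries, by Pearson correlation of log2 CPM, were Gm5779 (r = 0.992), Gm11517 (0.988), 4930447K03Rik (0.982), Hist1h2ak (0.980), Gm12504 (0.977), AV051173 (0.976), Gm20594 (0.976) and H2-T3 (0.973). The libraries fall into 2 clusters, so r here reflects the step itself. It is a description, with no p. RefSeq lists Gm5779, Gm11517 and Gm12504 as transcribed pseudogenes, 4930447K03Rik and AV051173 as long non-coding RNAs, Hist1h2ak as a histone H2A gene (H2ac15) and H2-T3 as a non-classical class I histocompatibility gene. Their last and first sets did not overlap either. Gm5779 had 0 to 1 counts in the last set and 39 to 63 in the first, Gm20594 0 and 25 to 98, and H2-T3 89 to 126 and 202 to 308. Of the 7 rows with transcripts in GENCODE M21, 4 (Gm5779, Gm11517, Hist1h2ak and Gm12504) share 10% or more of their 32-base stretches with another gene, as do 24.2% of the 12437 tested genes with transcripts, so their counts are uncertain. Ptcra shares 6.31%. The rows most like Prkdc were 4933421O10Rik (r = 0.741), Usp33 (0.738) and Lmnb2 (0.730).

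**Figure D3:**
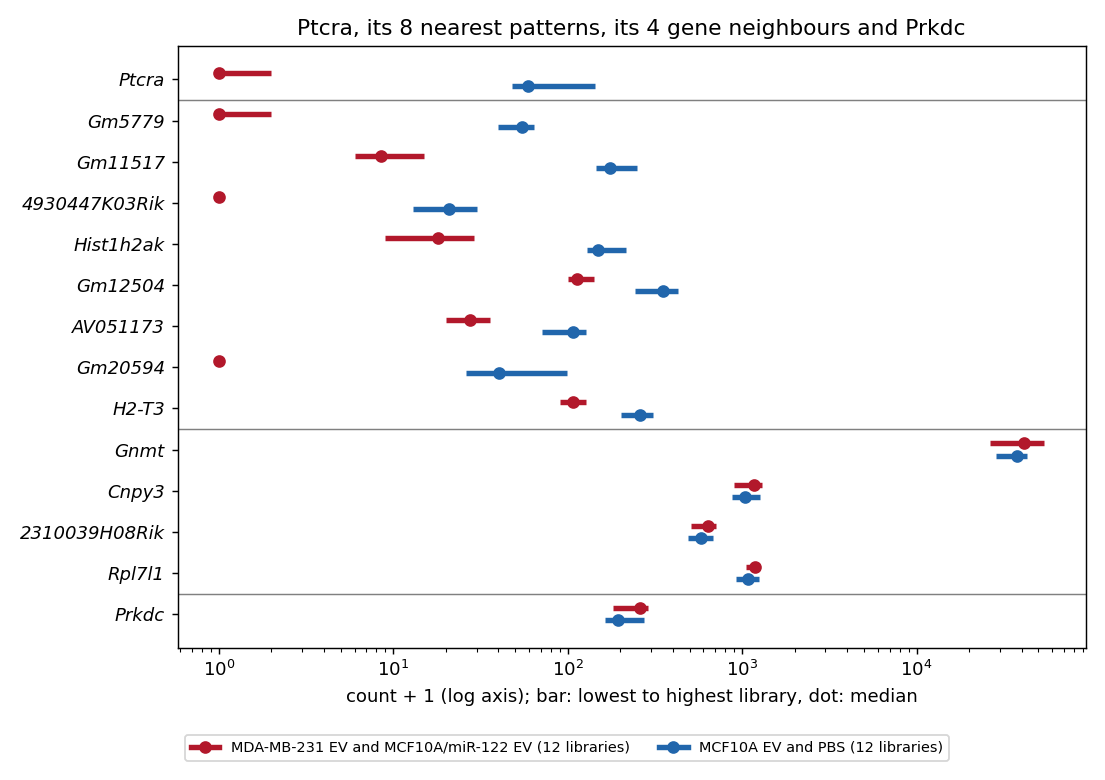
Counts per library (count + 1, log axis) of Ptcra, the 8 rows most correlated with it, its 4 gene neighbours and Prkdc. Bars run from the lowest to the highest library and dots mark the median, of the last set of 12 libraries above and the first set of 12 below; the sets do not overlap for Ptcra and the 8 rows and overlap for the neighbours and Prkdc.

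Other genes of the same cell types gave the same picture of few transcripts, with exceptions. Of 20 further T cell genes, 12 stayed under 10 counts in every library, Bcl11b (a T lineage factor) was at 0 in all, and 5 passed the filter, of which none changed between the sets (median log2 fold change 0.14, against 0.0027 over all genes tested). Zap70, a kinase of the T cell receptor pathway, was at 6.60 ± 1.98 CPM in the last set and 7.55 ± 2.79 CPM in the first (SD, n = 12 each). Cd247, the zeta chain of the receptor, was at 2.30 ± 0.629 CPM in the last set and 2.92 ± 0.806 CPM in the first (log2 fold change -0.33, SE 0.15, edgeR adjusted p = 0.117). Tcf7, a T lineage factor, and Cd4, a coreceptor also found on macrophages, were detected in every library as well. The summed level of the list ran from 9.99 to 17.995 CPM in the last set and from 13.1 to 21.2 CPM in the first. Unlike Ptcra, none of these genes stepped.

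Among 11 genes of early lymphoid development, 5 passed the filter and 3 were lower in the last set than in the first, where 13.2% of all genes tested were lower, with a median log2 fold change of -0.34. Rag1, which cuts the receptor genes, was at 0 in all libraries, and its partner Rag2 had 1 count, in an MCF10A EV library. Dntt, the terminal transferase that adds bases at the junctions, was at 2.53 to 6.93 CPM with a median of 3.74 CPM in MDA-MB-231 EV livers and at 1.87 to 3.51 CPM with a median of 2.27 CPM in MCF10A/miR-122 EV livers. It was at 3.03 to 6.84 CPM with a median of 4.57 CPM in MCF10A EV livers and at 2.90 to 8.32 CPM with a median of 5.83 CPM in PBS livers. The sets overlapped, and Dntt fell by 0.68 on the log2 scale (SE 0.19, edgeR adjusted p = 0.0091, lower in 11 of 12 libraries). Here and below, such counts of libraries of the last set are against the first set's median. By group, Dntt was called lower in MCF10A/miR-122 EV livers over PBS (-1.10, adjusted p = 0.0059) and over MCF10A EV (-0.91, adjusted p = 0.0219), a call lost without replicate 1 of either group. It did not pass in MDA-MB-231 EV livers over PBS (-0.46, adjusted p = 0.264) or over MCF10A EV (-0.27, adjusted p = 0.601). Hes1, a repressor induced by Notch in many cell types, was at 6.01 ± 2.05 CPM in the last set and 12.2 ± 4.99 CPM in the first (SD, n = 12 each). It fell by 1.00 on the log2 scale (SE 0.21, edgeR adjusted p = 9.68e-04, lower in 12 of 12). By group it was called over PBS in both groups of the last set and over MCF10A EV in neither. Notch1, a receptor that acts in T cell commitment and in other liver cells, fell by 0.29 (SE 0.10, edgeR adjusted p = 0.0316, lower in 11 of 12), and leaving out any 1 of 7 libraries ended that call. By group Notch1 was called in MDA-MB-231 EV over PBS livers alone of the 4 comparisons that cross the sets.

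Of 18 further B cell genes, 17 had a row and 6 passed the filter. Pou2af1, a transcriptional coactivator of B cells, was at 0 in all 24 libraries. Cd79b, the partner of Cd79a, had 8 to 20 counts in MDA-MB-231 EV, 12 to 30 in MCF10A/miR-122 EV, 5 to 14 in MCF10A EV and 4 to 17 in PBS livers. It rose by 0.55 on the log2 scale in the last set over the first (SE 0.20, edgeR adjusted p = 0.043, higher than the first set's median in 11 of 12 libraries). Cd22, an inhibitory receptor of B cells, rose by 0.45 (SE 0.16, edgeR adjusted p = 0.0446, higher in 9 of 12). These 2 calls were lost on leaving out any 1 of 13 libraries for Cd79b and of 16 for Cd22. Of all genes tested, 11.5% were higher in this contrast. The list's median log2 fold change was 0.34. Igj, Cd72 and Blnk, with log2 fold changes of 0.45, 0.02 and -0.15 between the sets, did not pass. In MCF10A/miR-122 EV over MCF10A EV livers Cd22 rose by 1.12 (SE 0.23, edgeR adjusted p = 0.0017) and Bank1, a B cell scaffold protein, by 0.81 (SE 0.16, edgeR adjusted p = 0.0011), and both calls held on leaving out any 1 library. Over PBS they did not pass in the same livers, with 0.60 for Cd22 (adjusted p = 0.0572) and 0.20 for Bank1 (adjusted p = 0.380). Bank1 averaged 2.04 CPM in MCF10A/miR-122 EV, 1.16 CPM in MCF10A EV and 1.77 CPM in PBS livers, and DESeq2 called it lower in MCF10A EV over PBS livers. Cd79b also rose in MCF10A/miR-122 EV over MCF10A EV livers, by 0.86 (edgeR adjusted p = 0.0331), a call lost without any 1 of 7 libraries. Of all genes, 16.2% were called in that comparison. Over PBS, where 17.9% were called, Cd79b was higher in the same livers by 0.78 (edgeR adjusted p = 0.0466). That call was lost without any 1 of 9 libraries, and was made by limma-voom and not by DESeq2. In MDA-MB-231 EV over MCF10A EV livers none of the 6 passed.

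Among the NK genes, 1 (Klrk1) differed within the last set, where 0.254% of all genes were called. Of 17 further genes, 13 stayed under 10 counts in every library, with Klrg1, Gzma, Fasl and Xcl1 at 0 in all, and 3 passed the filter. Klrk1, which encodes the activating receptor NKG2D, had 11 to 23 counts with a median of 18 in MDA-MB-231 EV livers and 25 to 47 with a median of 41 in MCF10A/miR-122 EV livers. These 2 groups did not overlap in counts, and the share of all genes that did not overlap here was not counted. It had 10 to 20 counts with a median of 15 in MCF10A EV livers and 15 to 36 with a median of 24.5 in PBS livers. Klrk1 fell by 1.07 on the log2 scale in MDA-MB-231 EV against MCF10A/miR-122 EV livers (SE 0.21, edgeR adjusted p = 0.0181), a call lost on leaving out any 1 of MCF10A/miR-122 EV replicates 1, 2 and 3 and MDA-MB-231 EV replicates 3 and 5 (adjusted p up to 0.0694). It rose by 1.05 in MCF10A/miR-122 EV over MCF10A EV livers (SE 0.21, edgeR adjusted p = 0.0014), where 16.2% of all genes were called. In MCF10A/miR-122 EV over PBS livers it did not pass (0.48, edgeR adjusted p = 0.0987). Between the sets none of the 3 genes (Klrk1, Cd160 and Ccl5) passed, and their median log2 fold change was 0.23.

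Macrophage genes were called by edgeR in MCF10A/miR-122 EV over MCF10A EV livers, as B cell and NK genes were. In no other comparison did edgeR call genes of both the B cell and the NK list. It called none of either list in MCF10A EV over PBS, MDA-MB-231 EV over PBS or MDA-MB-231 EV over MCF10A EV. Of 12 Kupffer cell and macrophage genes, all tested, 8 were higher in MCF10A/miR-122 EV over MCF10A EV livers, where 16.2% of all genes were called in either direction, and 6 in MCF10A/miR-122 EV over PBS livers, where 17.9% were. In MDA-MB-231 EV against MCF10A/miR-122 EV livers 3 (Emr1, Cd5l and Vsig4) were lower, where 0.254% were called. Without MCF10A/miR-122 EV replicate 3, 5 of the 8, 3 of the 6 and 0 of the 3 calls held. Their summed level ran from 277 to 414 CPM in MDA-MB-231 EV, 343 to 792 CPM in MCF10A/miR-122 EV, 305 to 380 CPM in MCF10A EV and 322 to 425 CPM in PBS livers, and none was at 0. The last set over the first gave 4 higher and 0 lower of the 12, of which 1 held without that library. Of all genes tested in this contrast, 11.5% were higher and 13.2% lower. In the same contrast 1 of 10 pan-leukocyte genes was higher (Lcp1), none of 4 tested plasmacytoid dendritic cell genes and none of 4 tested platelet and megakaryocyte genes passed, 2 of 3 tested neutrophil genes were lower (S100a8 and S100a9), and 2 of 10 hepatocyte genes were higher (Alb and Tat). The part of these cells in the lymphoid values was not tested.

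Of 14 receptor chains, ligands and signalling genes of the common gamma chain family, 11 passed the filter and 4 were lower in the last set, where 13.2% of all genes tested were lower, with none higher and a median log2 fold change of -0.13. Stat5a, a transcription factor downstream of these receptors and of growth hormone, was at 13.1 ± 1.71 CPM in the last set and 20.8 ± 4.28 CPM in the first (SD, n = 12 each), with no overlap in CPM. It fell by 0.66 on the log2 scale (SE 0.10, edgeR adjusted p = 3.08e-05, lower in 12 of 12). Il4ra, the interleukin 4 receptor alpha chain, was at 26.1 ± 3.30 CPM in the last set and 34.2 ± 3.44 CPM in the first, and fell by 0.39 (SE 0.07, edgeR adjusted p = 1.82e-04). Stat5a and Il4ra were called lower in each of the 4 group comparisons that cross the sets, which share their libraries, although leaving out any 1 of 7 libraries ended the Il4ra call in MDA-MB-231 EV over PBS and over MCF10A EV. Stat5b fell by 0.27 (edgeR adjusted p = 0.0159) and Stat6 by 0.13 (edgeR adjusted p = 0.0135). These genes are also expressed by hepatocytes. Jak3, the kinase bound to the common gamma chain, was at 12.1 ± 1.37 CPM in the last set and 12.9 ± 2.23 CPM in the first, and did not pass (adjusted p = 0.420). Some other receptor chains had few counts. Il7r had 20 counts in the last set and 5 in the first, Il2rb 7 and 4, and Il9r 0 in all libraries. Il2ra, with 126 and 131, and Il21r, with 100 and 94, had counts in every library and did not pass the threshold.

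Of 12 genes of non-homologous end joining, 11 had a row and all 11 passed the filter. Between the sets 1 was higher and 1 lower, where 11.5% of all genes tested were higher and 13.2% lower. Atm, a DNA damage kinase, was at 12.8 ± 1.34 CPM in the last set and 10.7 ± 1.94 CPM in the first (SD, n = 12 each). The sets overlapped, with 10.9 to 14.6 CPM in the last and 7.76 to 13.6 CPM in the first. Atm rose by 0.27 on the log2 scale (SE 0.08, edgeR adjusted p = 0.0103, higher than the first set's median in 12 of 12). By group, Atm was called over MCF10A EV in MDA-MB-231 EV livers (0.42, adjusted p = 0.0169) and in MCF10A/miR-122 EV livers (0.44, adjusted p = 0.0064), and not over PBS in MDA-MB-231 EV livers (0.10, adjusted p = 0.571) or in MCF10A/miR-122 EV livers (0.12, adjusted p = 0.456). It averaged 9.48 CPM in MCF10A EV and 11.8 CPM in PBS livers. Poll, a gap-filling polymerase, was at 4.80 ± 0.769 CPM in the last set and 6.65 ± 1.05 CPM in the first, and fell by 0.47 (SE 0.09, edgeR adjusted p = 7.12e-04, lower in 11 of 12). The other 9, which include both Ku subunits (Xrcc6 at -0.12 and Xrcc5 at 0.02 on the log2 scale) and the ligase Lig4 (-0.0058), did not pass, and the list's median was 0.01.

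**Figure D4:**
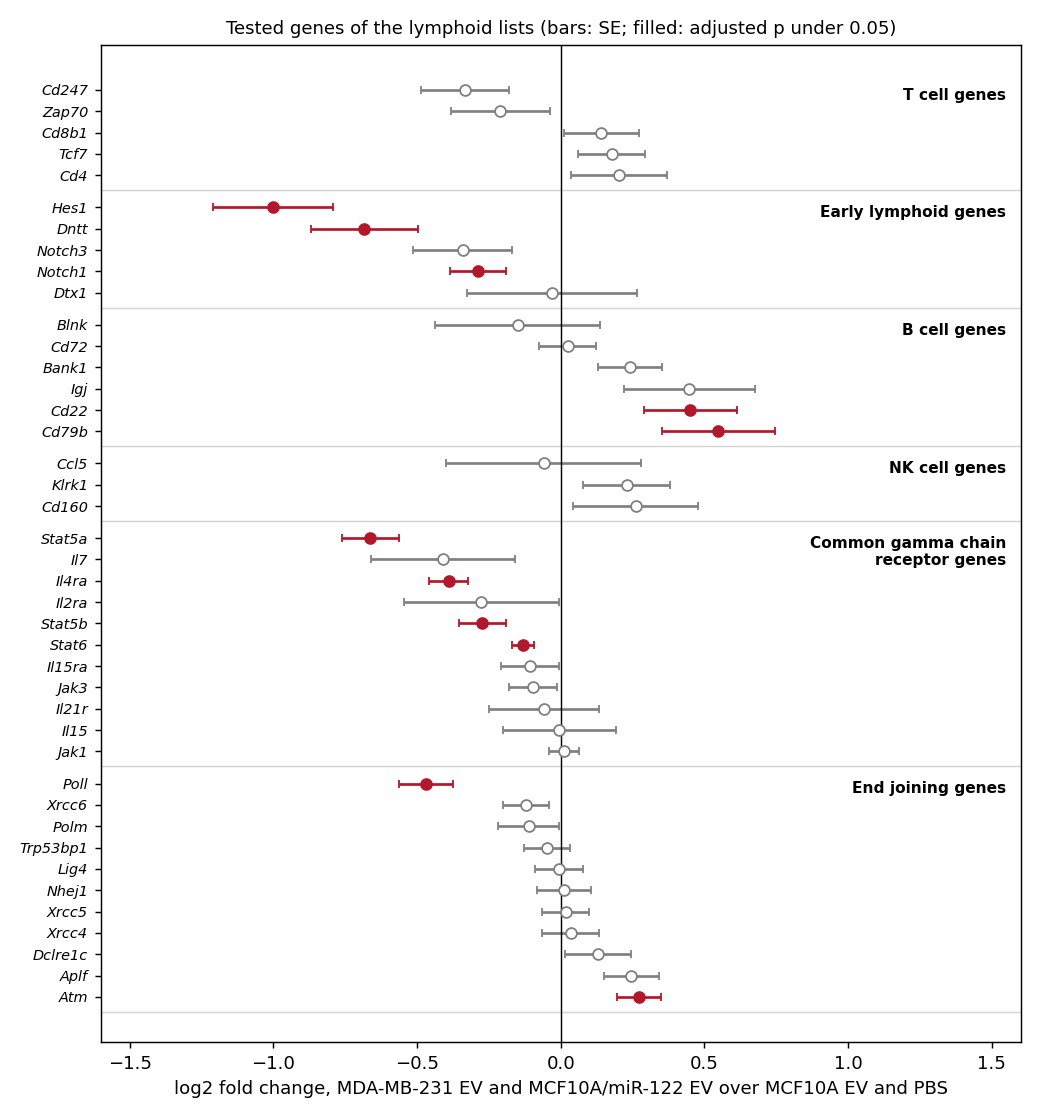
Log2 fold change of the last set over the first (horizontal axis) for each tested gene of 6 lists, with its standard error. Filled red points have an adjusted p under 0.05; they lie left of 0 for 3 early lymphoid and 4 common gamma chain genes, right of 0 for 2 B cell genes, and on both sides for the end joining genes.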

How the data were processed

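Stranded mRNA libraries of TRIZOL-extracted liver RNA were sequenced. The deposited values are raw read counts per gene symbol in 1 table. The submitters' processing notes name bcl2fastq 2.18.0.12, TopHat2 and mm9; the counting tool, annotation, strand setting and handling of multi-mapping reads were not given in the sources used here. Overlapping, antisense or near-identical genes may thus have lost or shared reads. The 27 rows that share 11 symbols (0.0744% of counts) were left out.

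Counts were tested with edgeR 4.0.16 in R 4.3.3 (quasi-likelihood F test, two-sided, TMM scaling, filterByExpr by group with its minimum count of 10, 1 mean per group, all 24 libraries in 1 fit). The biological coefficient of variation was 16.8%. The Benjamini-Hochberg method adjusted p over the 13773 genes tested, with a threshold of 0.05. CPM use TMM-scaled totals. Likeness used log2 CPM with a prior count of 2. DESeq2 1.42.0, limma 3.58.1 (voom), other scaling and filters, a replicate block, identities from library names and leaving out each library were alternatives. The fit was tested on simulated data. No libraries were found to be duplicates. The genes, lists and tests were chosen with earlier results of these data known, so no pattern here is independent support. Genes picked for naming were the 9 genes, the 8 rows most like Ptcra and 3 most like Prkdc, and 2 RefSeq neighbours on each side of Ptcra. Per list, up to 4 genes with the smallest p between the sets and 4 with the highest level were also picked. Not all genes picked from the lists are named in the text. Other genes were named after their values were seen. Shared sequence was measured as 32-base stretches of GENCODE M21 transcripts found in another gene. Protein sequences were not used here.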

Additional observations from a re-analysis of the deposited data

Results flagged for a closer look

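Summed levels of lists and levels of members were screened in groups of 6 for a library far from the rest (gap over range above Dixon's critical value of 0.625). The 44 groups screened did not cover every list and member. Members near 0, such as Ms4a1 with its 1 count in PBS replicate 4, are not among the flags. Of the 44 groups, 3 (6.82%) had such a library, where chance gives about 1 in 20. The NK cell genes summed to 1.71 CPM in MCF10A/miR-122 EV replicate 4, the lowest of its group, where the other 5 libraries ran from 2.48 to 2.89 CPM. The end joining genes summed to 104.9 CPM in MCF10A EV replicate 5, the highest of its group, against 94.9 to 98.1 CPM in the other 5. The plasmacytoid dendritic cell genes summed to 268 CPM in the same library, against 168 to 201 CPM in the other 5.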

How the results depend on the processing

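Where they were tested (Ptcra in MCF10A EV over PBS, Prkdc in all 7 comparisons), Ptcra and Prkdc did not pass the threshold under any alternative run, nor did the genes under the filter in the fit without it. Prkdc changed sign where its log2 fold change was near 0, never past the threshold. With identities from the library names it was -0.096 in MDA-MB-231 EV against MCF10A/miR-122 EV, -0.091 in MDA-MB-231 EV over MCF10A EV and 0.0051 in MCF10A/miR-122 EV over MCF10A EV, which follows from the exchange of the 2 groups. Leaving out 1 library at a time gave -0.054 to 0.054 in MDA-MB-231 EV over MCF10A EV, with negative values without MCF10A EV replicate 1 (-0.054), MDA-MB-231 EV replicate 2 (-0.0036) and MDA-MB-231 EV replicate 6 (-0.029). Same-numbered libraries did not deviate together (r from -0.43 to 0.37 over 36 pairs, 13 of them over 0.1; 7 of 24 libraries correlated best with their own number). With the replicate block, 0 members were called, Ptcra in MCF10A EV over PBS was 0.52, and Cd79b between the sets missed the threshold (adjusted p = 0.0501). Cd22 missed it under limma-voom (adjusted p = 0.0563), and both missed it without the filter (adjusted p = 0.0579 for Cd79b and 0.0582 for Cd22). Between the sets, Dntt, Hes1, Il4ra, Stat5a, Stat5b, Stat6, Atm and Poll passed the threshold under all 30 alternatives each. Limma-voom called 1 B cell gene and 1 macrophage gene higher and 0 neutrophil genes lower, and DESeq2 called 1 plasmacytoid dendritic cell gene higher. For these the cause was not tested. The fit of only the groups compared gave no value for Ptcra in MDA-MB-231 EV against MCF10A/miR-122 EV, where it failed the filter. The 7 members under the filter rest on 0 to 8 counts per library.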
